A study of Mesocricetus auratus with 24 samples.

Results

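The regions described here were CpG-sparse stretches of the Syrian hamster genome that carried little methylation in vehicle-treated fetal cell colonies. The genome was divided into windows of 1 kb, and 22842 windows held at least 3 CpG positions, strands counted apart, in each of 24 libraries. A window was taken as CpG-sparse when it held fewer than 30 such positions over all libraries, and as low when its level averaged below 20% over the 4 vehicle pools. This left 2046 windows, 8.96% of those measured. The level of a window in a library was the percent of all reads over its positions that carried a methylated cytosine. Because the vehicle pools chose the windows, the low levels in those pools are part of the definition and are not a result.

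Methylation was read by reduced representation bisulfite sequencing in cells taken through a transformation assay, in which fetal cells grow as colonies after exposure to a chemical and some colonies acquire altered, transformed morphology. Exposure was to 5 µg/mL B[a]P, which is benzo[a]pyrene, a carcinogen of combustion smoke that becomes DNA-reactive once metabolised. There were 6 groups of 4 libraries. The DMSO pools were about 60 colonies each that received the vehicle, 0.2% DMSO, and the B[a]P pools were about 60 treated colonies each, both collected on day 9. The normal and the transformed colonies were single B[a]P-treated colonies of normal or transformed morphology, expanded for 19 to 25 days. Pools and colonies came from assays on cells of a single male fetus. The senescent libraries (day 48) and the bypass libraries (day 94) came from 1 culture grown from a B[a]P-treated transformed colony, before and after it escaped senescence, in an assay on pooled female and male fetuses, and the culture was typed male. Per the series' design text, pools and colonies are biological replicates, while each state of the culture was sampled by technical replicates, whose spread measures library preparation and sequencing of 1 culture.

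In mammalian DNA most CpGs are methylated, and regions free of methylation are mainly CpG islands, which are CpG-dense and often hold promoters. CpG-poor regions are usually methylated, and those that are not often lie at the borders of islands or at distal regulatory elements where transcription factors bind. Cultured and transformed cells are known to gain methylation at some regions that are unmethylated in the tissue of origin.

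The 2046 windows held a median of 21 positions over all libraries (quartiles 15 and 25), at a median of 15 CpG sites, of which a median of 5 were read on both strands. Their positions spanned a median of 430 bp from first to last, so most of each window was not read. A window had a median of 398 reads (range 30 to 18151) and 10 positions per library, with a read counted again at each position it covers. The positions read changed from library to library, and 1706 of the 2046 windows had no position that was listed in all 24 libraries. The windows lay on 306 of the 977 scaffolds with measured windows, at most 85 on 1 scaffold, and 90 adjoined another window of the set. Total coverage per library ran from 30316233 to 67276906 reads summed over 809562 to 1484688 listed positions. The count of positions that defines CpG-sparse depends on which fragments were read as well as on the sequence.

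At the upper edge of the definition, the window at KB708147.1:18690001-18691000 averaged 19.99% in the DMSO pools and those at KB708187.1:2321001-2322000 and KB708319.1:1969001-1970000 averaged 19.99% and 19.97%. Just outside lay KB708132.1:1806001-1807000 at 20.01%, KB708137.1:7329001-7330000 at 20.23% and KB708294.1:2743001-2744000 at 20.24%. At KB708147.1:18690001-18691000 the 4 DMSO pools read 21.4, 29.7, 0 and 28.8%, so that near the edge the spread between pools (SD 13.8 points) was far wider than the distance from the limit.

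Mean methylation over the 2046 windows was lowest in the DMSO pools, in part because they chose the windows, and highest in the bypass culture. The other groups lay between them. In the DMSO pools it was 5.30% ± 0.541 (SD, n = 4), with libraries from 4.51 to 5.72%. In the B[a]P pools it was 6.95% ± 0.221, with libraries from 6.72 to 7.22%. In the normal colonies it was 7.27% ± 1.40, with single colonies at 6.64, 5.59, 8.50 and 8.35%. The normal colonies were the most dispersed group and overlapped the DMSO pools, the B[a]P pools and the transformed colonies.

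Transformed colonies averaged 8.52% ± 0.662, at 7.58, 8.80, 8.59 and 9.10%. The senescent culture averaged 11.0% ± 0.480, at 10.9, 11.7, 11.0 and 10.5%. The bypass culture averaged 15.5% ± 0.209, at 15.7, 15.2, 15.7 and 15.5%. The senescent libraries lay above every pool and colony, and the bypass libraries above every senescent one. In bulk DNA, a level of this kind cannot tell a larger share of methylated cells from more methylated sites per cell. The senescent and bypass culture differed from the pools and colonies in the fetuses used and in the time in culture as well as in state, and these cannot be told apart.

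The order of the groups was also seen over fixed positions, where the place of the DMSO pools again follows in part from the choice of windows. In the 340 windows with at least 1 position listed in every library, the mean over those positions alone was 5.90% ± 0.489 in the DMSO pools, 6.64% ± 0.513 in the B[a]P pools, 7.21% ± 1.19 in the normal and 7.51% ± 0.623 in the transformed colonies. It was 9.85% ± 0.923 in the senescent and 14.4% ± 0.401 in the bypass culture. Neighbouring groups among the pools and colonies overlapped here, while the senescent and bypass libraries remained above them.

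**Figure D1:**
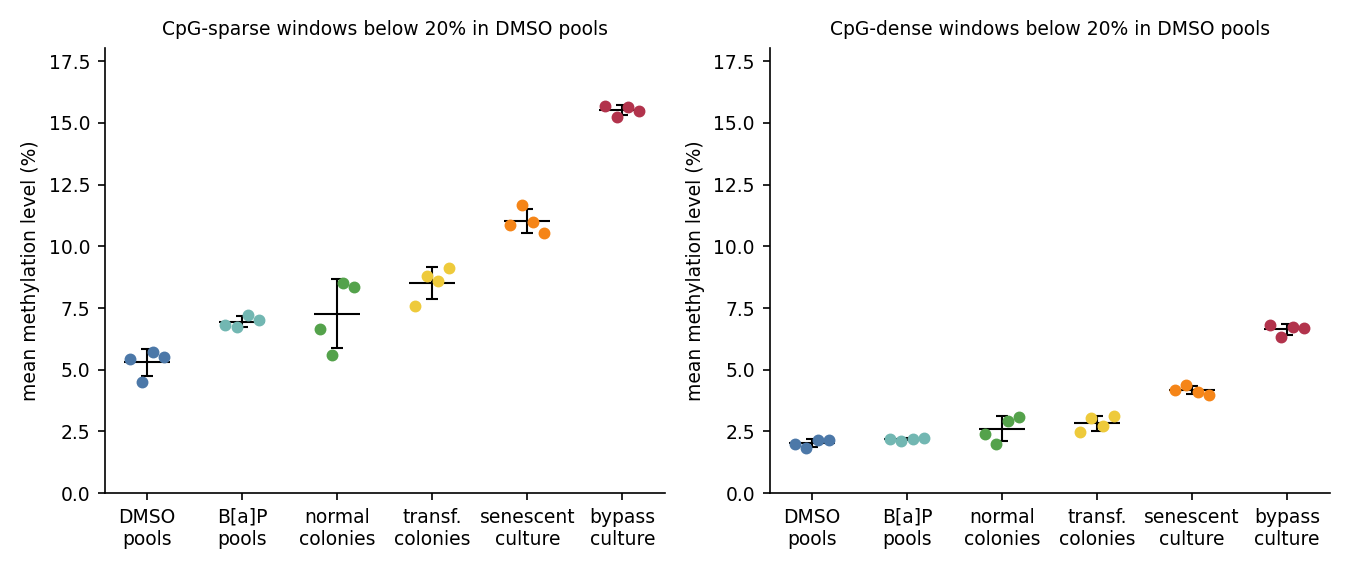
Mean methylation level (%) of the 2046 CpG-sparse low windows (left) and of the 11918 CpG-dense windows that were also below 20% in the DMSO pools (right), 1 point per library, with the mean and SD of the 4 libraries in black. In the left panel the bypass libraries sit between 15.2 and 15.7% and the senescent ones between 10.5 and 11.7%, above all pools and colonies.

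For comparison, the 11918 CpG-dense windows below 20% in the same pools averaged 2.04% in the DMSO pools, 4.17% in the senescent and 6.63% in the bypass culture. Over all 22842 windows the means were 28.3, 31.8 and 34.4%. The difference between the bypass and senescent means was thus 4.50 points in the CpG-sparse low windows and 2.62 points over all windows. The medians were 1.32 and 0.629 points. In the CpG-dense low windows the mean difference was 2.47 points and the median 0.389. In the CpG-sparse windows at 20% or more in the DMSO pools the mean was 1.83 points, and the median of 1.21 was near that of the low ones. The bypass mean was at least 10 points higher in 19.9% of the CpG-sparse low windows and 17.9% of the other CpG-sparse ones. A window that starts near 0 has more room to rise than to fall, and this holds for both low classes.

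Most of the CpG-sparse low windows were below 20% in any given library, but the median window was also higher in the senescent and bypass culture than in the pools. The median window level, averaged over the 4 libraries, was 0.409% in the DMSO pools, 1.09% in the B[a]P pools, 1.87% in the normal colonies, 2.07% in the transformed colonies, 3.44% in the senescent and 6.22% in the bypass culture. Libraries of neighbouring groups overlapped in this median, and the 4 bypass libraries ran from 4.74 to 6.89%, with a senescent library as high as 4.84%. The share at 20% or more averaged 7.76% in the DMSO pools, 11.7% in the B[a]P pools, 11.5% in the normal colonies, 14.8% in the transformed colonies, 19.6% in the senescent and 27.9% in the bypass culture. The share at 50% or more averaged 0.122, 1.22, 1.54, 2.53, 4.23 and 9.13% in the same order. Both shares are held down in the DMSO pools by the definition of the windows. The share at exactly 0 averaged 50.3% in the DMSO pools and 32.2% in the bypass culture.

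In 5 of the 6 groups the library with the highest share at 0 was the one with the fewest positions read. DMSO replicate 2, B[a]P replicate 3, senescent replicate 2 and bypass replicate 4 each had the highest share at 0 of their group (59.5, 55.2, 46.7 and 40.2%) and the fewest positions, a median of 8 per window, as did transformed replicate 4 (41.3%, 10 positions). In the normal colonies this was not so: replicate 3, with the fewest positions (a median of 10), had 40.1% at 0, and replicate 1, with 12, had 40.9%. The part of read positions in these shares was not tested.

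**Figure D2:**
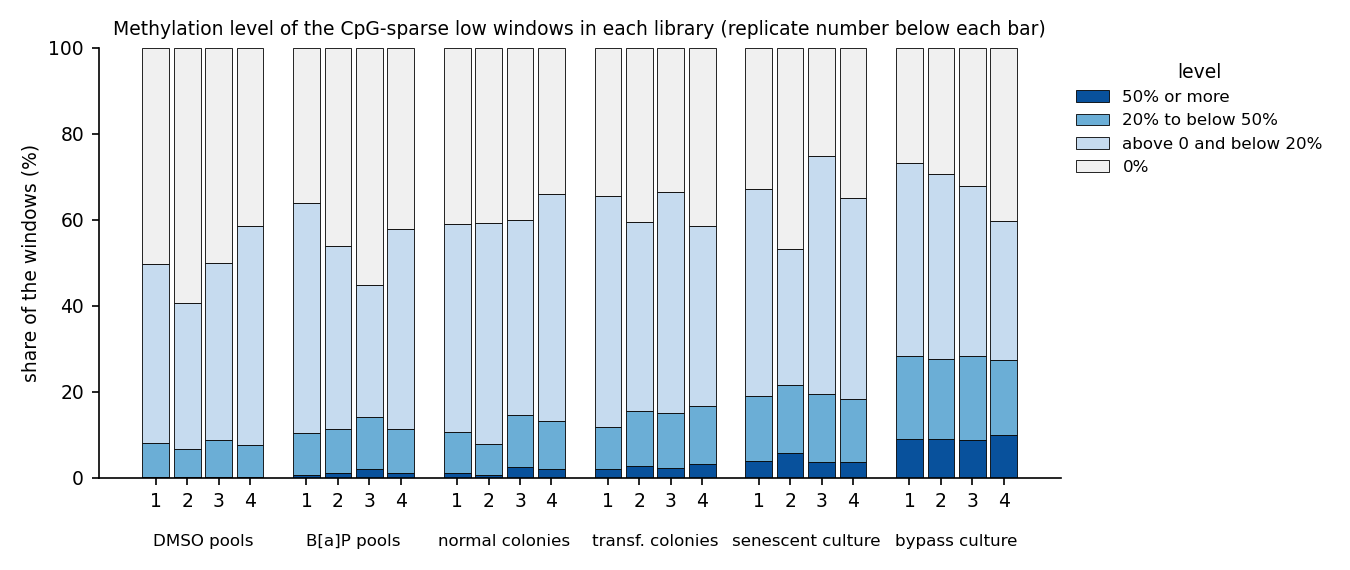
Share (%) of the 2046 CpG-sparse low windows at each level of methylation, 1 bar per library, grouped by condition with the replicate number under each bar. The darkest segment, windows at 50% or more, averages 0.122% in the DMSO pools and 9.13% in the bypass culture. The DMSO share is held down by the definition of the windows.

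Followed window by window, 877 of the 2046 (42.9%) were below 20% in all 24 libraries, 188 were below 5% in all and 6 were at 0 in all. The 3 named from those at 0 were KB708269.1:1004001-1005000 (142 to 1021 reads per library), KB708136.1:20145001-20146000 (35 to 424 reads) and KB708236.1:5782001-5783000 (50 to 463 reads). The first and the last adjoined a CpG-dense window below 20%. A level of 0 read from 35 reads can also come from a true level of a few percent.

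The number of windows below 20% in all 4 libraries of a group was 1556 for the DMSO pools, 1503 for the B[a]P pools, 1477 for the normal colonies, 1399 for the transformed colonies, 1348 for the senescent and 1158 for the bypass culture. The number at 50% or more in all 4 was 0, 1, 1, 3, 25 and 74, where the 0 of the DMSO pools is set by the definition. Of the 25 windows at 50% or more in all 4 senescent libraries, 17 were at 50% or more in all 4 bypass libraries and 0 were below 20% in all 4 of them. A stepwise rise through all 6 groups was rare: the group means rose at each step in 31 windows (1.52%), against 1.74% of all windows.

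The few windows that were high in every library of a pool or colony group were looked up after their values were seen. KB708249.1:4851001-4852000 was the only one at 50% or more in all 4 B[a]P pools (50.6, 68.1, 92.7 and 55.7%), and it read 0, 19.2, 0 and 51.2% in the DMSO pools. It was also one of the 3 that were high in all 4 transformed colonies, with KB708128.1:31823001-31824000 and KB708252.1:2627001-2628000. KB708232.1:7132001-7133000 was the only one high in all 4 normal colonies, at 86.1, 87.2, 84.2 and 63.2%, and its DMSO pools read 0, 0, 39.7 and 27.3%. In each of these windows except KB708252.1:2627001-2628000, whose DMSO pools read 0 to 15.5%, at least 1 DMSO pool was itself above 20%.

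The B[a]P pools and the DMSO pools were set side by side with no test, because the definition used the DMSO levels and so favours low values in those pools. The mean difference over the 2046 windows was 1.65 points and the median 0.171. The B[a]P mean was at least 10 points higher in 169 windows (8.26%) and at least 10 points lower in 28 (1.37%), against 6.85% and 5.24% of all windows.

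The effect of the choice itself was read from a DMSO pool that had no part in it. With the windows chosen on 3 DMSO pools (2027 to 2083 windows), those 3 pools averaged 5.16 to 5.31%, and the pool left out averaged 5.72 to 7.16%. The B[a]P pools averaged 6.89 to 7.42% over the same windows. The left-out pool was thus above the 3 that chose the windows each time, and below the B[a]P mean each time, by the least when replicate 3 was left out (7.16 against 7.37%). These runs shared 1974 to 2005 windows with the main set and used the same B[a]P pools, so they are not separate observations. The difference from the B[a]P pools was not tested.

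The bypass and senescent libraries played no part in choosing the windows and were compared with a test. Since each state is 1 culture sampled by 4 technical replicates, the p-values of this comparison cover only the spread between repeat libraries and not that between cultures. A window was called when the adjusted p of a quasi-binomial F test with dispersions squeezed by limma was below 0.05 and the group means were at least 10 points apart. Of the 2046 windows, 58 (2.83%) were called higher in bypass and 0 lower. Over all windows 2.28% were called higher and 0.188% lower. At an unadjusted p below 0.05 the test held 48 of the 2046 windows lower (2.35%, against 3.91% of all windows). With edgeR 0 were called lower, here and over all windows. In either direction the share called was 2.83% here and 2.47% over all windows, so these windows were called about as often as the rest. A window below 10% in senescence could not be called lower under this rule.

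Levels of the 4 bypass libraries all lay above those of the 4 senescent ones in 187 windows (9.14%, against 6.93% of all windows) and all below in 14 (0.684%, against 1.27%). The bypass mean was at least 20 points higher in 181 windows (8.85%, against 4.36% of all windows) and at least 20 points lower in 12 (0.587%, against 0.972%). Among CpG-dense low windows 2.53% were called higher, and among CpG-sparse windows at 20% or more 1.32% were.

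The 58 called windows lay on 48 scaffolds and rose by 11.2 to 69.9 points, with a median of 36.2. Their mean level was low in the pools and colonies, at 7.84% ± 0.910 (SD, n = 4) in the DMSO pools, 9.58% ± 0.822 in the B[a]P pools, 12.1% ± 2.70 in the normal colonies and 13.9% ± 2.59 in the transformed colonies, and in 35 of them no pool or colony group mean reached 20%. It was 16.3% ± 1.57 in the senescent and 52.5% ± 2.98 in the bypass culture, values given as a description since these windows were chosen by that difference. In bypass 15 of the 58 reached 70% or more, 32 lay between 30 and 70% and 11 below 30%. In senescence 40 were below 20% and 16 below 5%.

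The number called fell whichever library was left out. It was 30, 36, 24 and 25 without senescent replicates 1, 2, 3 and 4, and 34, 35, 39 and 42 without bypass replicates 1, 2, 3 and 4. Such runs hold fewer libraries, and over all windows the 521 called higher became 240 to 411. With edgeR the number was 1 and with no squeezing 18, against 1 and 97 over all windows. Over positions of at least 20 reads it was 21 of 725, against 213 of 9722 over all windows. In windows of at least 5 positions it was 28 of 751, against 389 of 13840. When windows of very low or very high pooled level were left out of the adjustment, it was 94 of 1150, against 767 of 11965.

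**Figure D3:**
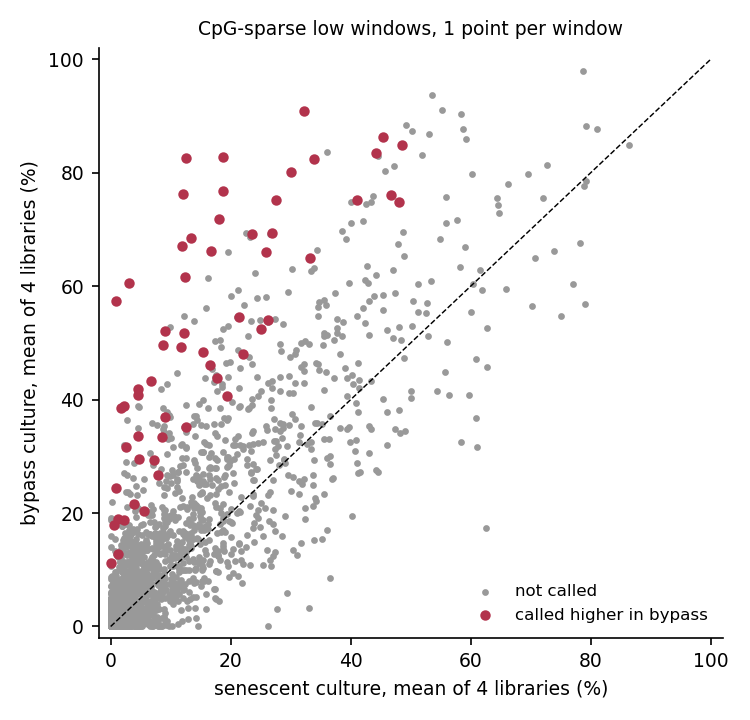
Mean level (%) of each of the 2046 CpG-sparse low windows in the 4 senescent libraries (horizontal axis) and in the 4 bypass libraries (vertical axis), with the 58 windows called higher in bypass in red and equal levels on the dashed line. Points far above the line outnumber those far below it: 181 windows are at least 20 points higher and 12 at least 20 points lower.

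Among the called windows whose libraries did not overlap, the 6 with the largest increase were followed through all groups. The largest was at KB708150.1:15988001-15989000, which adjoined CpG-sparse windows only. It read 73.9, 83.4, 88.1 and 84.5% in the bypass libraries and 23.6, 0, 16.0 and 10.8% in the senescent ones, at 296 to 839 reads. The rise was 69.9 points from 12.6% ± 9.89 to 82.5% ± 6.04 (adjusted p = 0.000928, limma-squeezed quasi-binomial test). Positions shared by all senescent and bypass libraries averaged at most 7.73% in senescence, but the bypass libraries differed widely at most of them. Base 15988837 averaged 96.7% ± 6.67 in bypass and base 15988814 averaged 75.5% ± 28.4. Bases 15988977 and 15988989 averaged 57.7% ± 50.4 and 56.5% ± 51.3. The spread was about as wide at bases 15988932 and 15988937. The transformed colonies lay between 2.07 and 8.23% and the B[a]P pools at or below 0.192%. Normal replicate 4 (25.5%) and DMSO replicate 2 (14.7%) stood above the rest of their groups.

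The next window, KB708147.1:8903001-8904000, adjoined a CpG-dense window below 20%. Its bypass libraries read 68.5, 59.8, 100 and 76.4% and its senescent libraries 10.3, 0, 22.4 and 15.3%, a rise of 64.2 points (adjusted p = 0.00551, limma-squeezed test). All 16 pool and colony libraries were at or below 14.6%. With no squeezing the adjusted p of this window was 0.0713.

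KB708133.1:20770001-20771000 was the most deeply read, at 5544 to 10305 reads in the 8 libraries, and the only one of the 58 that edgeR also called (adjusted p = 7.11e-05). Its bypass libraries read 83.5, 79.5, 83.4 and 84.7% and its senescent libraries 18.0, 18.8, 20.1 and 17.6%, a rise of 64.2 points with SDs of 2.26 and 1.12 (adjusted p = 2.59e-09, limma-squeezed test). Both groups were less spread here than in the other 5 windows. The transformed colonies lay between 2.85 and 5.64%, while normal replicate 1 stood at 33.9% against 4.02 to 7.88% in the other normal colonies.

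The rise in that window was carried by each position that all 8 libraries shared. On the forward strand, base 20770484 of KB708133.1 went from 13.4% to 66.6%, base 20770505 from 21.4% to 97.6% and base 20770527 from 22.9% to 91.0%, each over at least 1675 reads per library. Such depth can include copies of the same molecule, since the deposited counts do not show whether copies were removed. Without the positions in the top 0.1% of coverage of each library, the rise was 42.8 points and still called (adjusted p = 0.00491, limma-squeezed test).

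At KB708194.1:3653001-3654000 the senescent libraries were already spread, at 37.2, 9.84, 61.4 and 20.7%, and the bypass libraries read 74.1, 89.2, 100 and 100%. The rise was 58.6 points (adjusted p = 0.0229, limma-squeezed test). This call rested on single libraries, since the adjusted p was 0.123 without bypass replicate 2 and 0.0589 without senescent replicate 4, and it was 0.134 with no squeezing. Transformed replicate 4 stood at 52.8% and DMSO replicate 1 at 36.1%, so this window was not uniformly low before.

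APMT01216196.1:5001-6000, on a small contig, read 71.3, 76.0, 78.1 and 81.7% in bypass and 14.0, 30.2, 11.9 and 19.0% in senescence, a rise of 58.0 points (adjusted p = 0.00705, limma-squeezed test). The B[a]P pools there reached 35.5%, above every transformed and normal colony (at most 12.2%). KB708197.1:5716001-5717000 had the lowest senescent level of the 6, at 1.95, 0, 2.42 and 7.99%. It read 51.2, 55.9, 68.3 and 67.0% in bypass, a rise of 57.5 points (adjusted p = 0.00041, limma-squeezed test), and every pool and colony was at or below 15.7%.

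**Figure D4:**
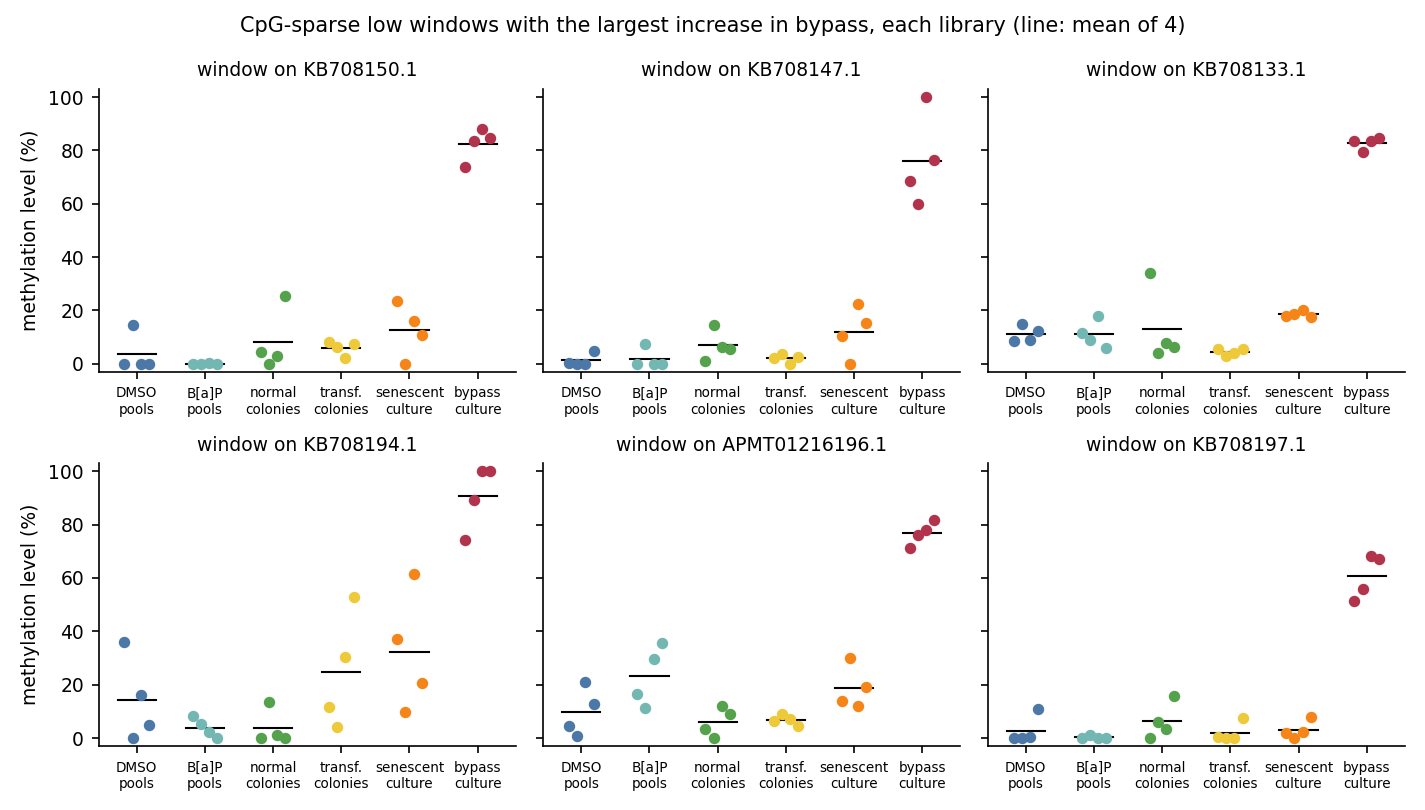
Methylation level (%) in each of the 24 libraries for the 6 called windows with the largest increase, 1 panel per window named by its scaffold, with the group mean as a line. In all 6 panels the 4 bypass points lie above the 4 senescent points, and the panel for KB708133.1 shows the narrowest bypass group (79.5 to 84.7%).

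Within the 58 called windows, 37 had positions listed in all 8 libraries, 167 positions in all. Of these positions 120 (71.9%) were at least 10 points higher in bypass and 5 at least 10 points lower. The windows were called for a rise over the same reads, so a rise at most of these positions follows from the call. In 15 of the 37 windows each shared position was at least 10 points higher. Values of single positions were often at either extreme: in senescence 65.9% of the position values in called windows were at 0 and 8.29% at 100%, and in bypass 35.2% and 28.9%. With a median of 38 and 35 reads behind a value, both extremes also take in levels a few percent away.

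A stricter view took the 1110 windows below 20% in each of the 16 pool and colony libraries. None of them was at 50% or more in all 4 senescent libraries and 5 were so in bypass, namely KB708147.1:8903001-8904000 and KB708197.1:5716001-5717000, described above, and 3 others, named after their values were seen. KB708155.1:16149001-16150000 was at 0 in all 4 DMSO pools, read 15.0, 18.4, 7.51 and 12.9% in senescence and 64.1, 73.0, 68.7 and 68.0% in bypass. KB708132.1:4134001-4135000 averaged 26.0% ± 7.96 in senescence and 58.0% ± 0.804 in bypass. KB708200.1:8300001-8301000 averaged 33.2% ± 6.25 in senescence and 64.9% ± 9.42 in bypass.

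In these 3 windows all senescent libraries already lay above the transformed colonies, which reached at most 3.62, 18.5 and 15.3%. In KB708147.1:8903001-8904000 and KB708197.1:5716001-5717000 the senescent and transformed libraries overlapped. Only KB708155.1:16149001-16150000 and KB708197.1:5716001-5717000 were below 20% in all 20 libraries outside bypass. Of the 1010 windows low in those 20 libraries, 14 were at 20% or more in all 4 bypass libraries.

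Transformed and normal colonies, which shared the exposure and the time in culture, were compared to see whether morphology went with methylation in these windows. Of the 2046 windows, 0 were called in either direction, as were 0% of all windows. At an unadjusted p below 0.05 there were 135 of the 2046 (6.60%), against 8.82% of all windows. With edgeR 0 were called and 74 (3.62%, against 2.99% of all windows) had an unadjusted p below 0.05. All 4 transformed colonies lay above all 4 normal ones in 33 windows (1.61%, against 1.48% of all windows) and below them in 15 (0.733%, against 0.749%). The mean difference was 1.25 points and the median 0.144.

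The smallest p was at KB708164.1:13941001-13942000, where the transformed colonies read 17.8, 57.5, 83.2 and 50.4% and the normal colonies 9.19, 0, 0.847 and 15.9% (adjusted p = 0.559, limma-squeezed test). The groups did not overlap, yet the transformed colonies ran over most of the scale, and the senescent culture read 30.7 to 61.4%. KB708292.1:2185001-2186000 had the second smallest p with a difference of only 0.918 points, from 0% in all 4 normal colonies to 0.173 to 1.32%. At KB708165.1:1530001-1531000, with the third smallest p, transformed replicate 2 (0.338%) lay among the normal colonies (0 to 12.2%) and the other 3 above them (22.8 to 31.6%).

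Both kinds of colony were also compared with the B[a]P pools, which had the same exposure but were mixtures collected on day 9. These comparisons share the 4 B[a]P pools and so are not independent. Between transformed colonies and B[a]P pools 0 of the 2046 windows were called, against 0.0131% of all windows called higher and 0% lower. At an unadjusted p below 0.05 there were 159 of them (7.77%, against 10.6% of all windows). With edgeR 0 were called, and 95 (4.64%, against 4.28% of all windows) had an unadjusted p below 0.05. The groups did not overlap in 43 windows higher in the colonies (2.10%, against 2.75% of all windows) and 19 lower (0.929%, against 0.849%).

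By p, the first of these windows was KB708134.1:10699001-10700000, at 16.5, 0, 18.9 and 6.74% in the transformed colonies and at most 0.0928% in the B[a]P pools (adjusted p = 0.204, limma-squeezed test). Normal replicate 1 was at 26.8% there and normal replicate 2 at 0, so the spread was between colonies of either morphology. KB708147.1:11205001-11206000 read 22.2, 48.0, 52.8 and 40.7% in the transformed colonies and at most 4.35% in the B[a]P pools (adjusted p = 0.341, limma-squeezed test). It was also at 23.3 to 60.7% in senescence and 37.3 to 61.6% in bypass, but 2 DMSO pools stood at 27.1 and 22.9%. KB708244.1:4152001-4153000 lay between 6.95 and 18.0% in the transformed colonies and at or below 1.25% in the B[a]P pools (adjusted p = 0.341, limma-squeezed test).

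Between normal colonies and B[a]P pools 0 of the 2046 windows were called, as were 0% of all windows. The unadjusted p was below 0.05 in 134 windows (6.55%, against 9.03% of all windows). With edgeR 0 were called, and 84 (4.11%, against 3.61% of all windows) were below that level. The groups did not overlap in 31 windows higher in the colonies (1.52%, against 1.88% of all windows) and in 20 lower (0.978%, against 1.1%).

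The smallest p was at KB708187.1:6979001-6980000, where the normal colonies (0 to 8.46%) all lay below the B[a]P pools (19.3, 44.5, 47.2 and 32.3%; adjusted p = 0.529, limma-squeezed test). The transformed colonies there read 41.6, 32.6, 0.274 and 8.38% and overlapped the B[a]P pools. KB708159.1:4063001-4064000 differed by 1.98 points, from at most 0.802% in the pools to 1.63 to 3.23% in the colonies. KB708146.1:18413001-18414000 differed by -3.82 points, with normal colonies at or below 0.137% and pools from 0 to 8.89%.

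Single colonies of both morphologies read far apart in some windows. Of the 2046 windows, 206 were at 50% or more in at least 1 of the 8 colonies and 0 in all 8. In at least 1 of the 4 B[a]P pools 83 were, a count over fewer libraries that cannot be set directly against that of the colonies. In 13 windows exactly 1 colony was at 50% or more and the other 7 below 20%. Of these colonies 4 were normal (replicates 3 and 4) and 9 transformed (all 4 replicates). The median SD of a window was 4.01 points over the normal and 4.09 over the transformed colonies and 3.61 over the B[a]P pools. It was 4.36 over the senescent and 5.48 over the bypass libraries, which were repeats of 1 culture. By this median the colonies were no more spread than those repeats.

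The window with the largest SD over the 8 colonies was KB708127.1:55537001-55538000. Normal replicate 4 read 100% there and transformed replicate 3 read 82.2%, while the other 6 colonies lay between 0 and 12.9%. It was read at as few as 39 reads and 3 positions, and its bypass libraries, from 1 culture, ran from 15.1 to 100%. KB708252.1:2627001-2628000 differed as widely among normal colonies, at 0.461 and 0% in 2 of them and 47.6 and 97.8% in the others, and read 51.1 to 74.9% in all 4 transformed ones.

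In the other windows of this kind the transformed colonies were split as well. KB708404.1:528001-529000 read 67.2, 89.2, 55.8 and 0% in transformed and 0, 24.4, 20.3 and 72.4% in normal colonies. KB708154.1:2632001-2633000 read 18.9, 96.0, 78.3 and 31.4% in transformed and 31.7, 0, 11.4 and 52.7% in normal colonies. APMT01211605.1:1001-2000 read 0, 71.9, 13.8 and 76.6% in transformed colonies and 43.3% in normal replicate 3, with the other normal colonies at or below 7.58%. All 5 windows adjoined CpG-sparse windows only.

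Where a window lay relative to CpG-dense DNA went with its level in every group. Of the 2046 windows, 875 (42.8%) adjoined a CpG-dense window below 20%, 904 (44.2%) had CpG-sparse neighbours only, 234 (11.4%) had no positions read on either side and 33 adjoined a CpG-dense window at 20% or more only. Those beside a CpG-dense low window averaged 3.97% ± 0.253 (SD, n = 4) in the DMSO pools and 11.8% ± 0.334 in bypass. Those with CpG-sparse neighbours only averaged 6.17% ± 0.821 and 18.5% ± 0.578. Those with no positions on either side averaged 6.48% ± 0.871 and 17.7% ± 0.733.

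The windows beside CpG-dense low DNA were thus the lower class in all 6 groups, and 2.17% of them were called higher in bypass, against 3.32% of those with CpG-sparse neighbours and 3.42% of those with none read. These 3 shares were not tested against each other. The border windows were read mainly close to the border: in the 843 with CpG-dense low DNA on 1 side only, the positions lay a median of 172 bp from the shared border, and in 738 (87.5%) nearer than 500 bp.

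In each group outside the DMSO pools, whose levels set the bands, the mean level followed the order of the starting level. The 881 windows below 2% in the DMSO pools averaged 1.62% in the B[a]P pools, 2.12% in the transformed colonies, 3.05% in senescence and 5.02% in bypass. The 459 windows at 10 to 20% averaged 18.0% in the B[a]P pools, 21.3% in the transformed colonies, 26.1% in senescence and 34.2% in bypass. The bands between (356 windows at 2 to 5% and 350 at 5 to 10%) reached 13.2% and 19.8% in bypass. The share called higher in bypass did not follow that order, at 1.36, 3.65, 2.29 and 5.45% from the lowest band to the highest. In all, 114 windows of the highest band were at 50% or more in the bypass mean and 7 of the lowest. The DMSO bands are read from the pools that chose the windows, so part of their levels in those pools is the choice. The same holds for part of the difference between a band's starting level and its level in the other groups.

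**Figure D5:**
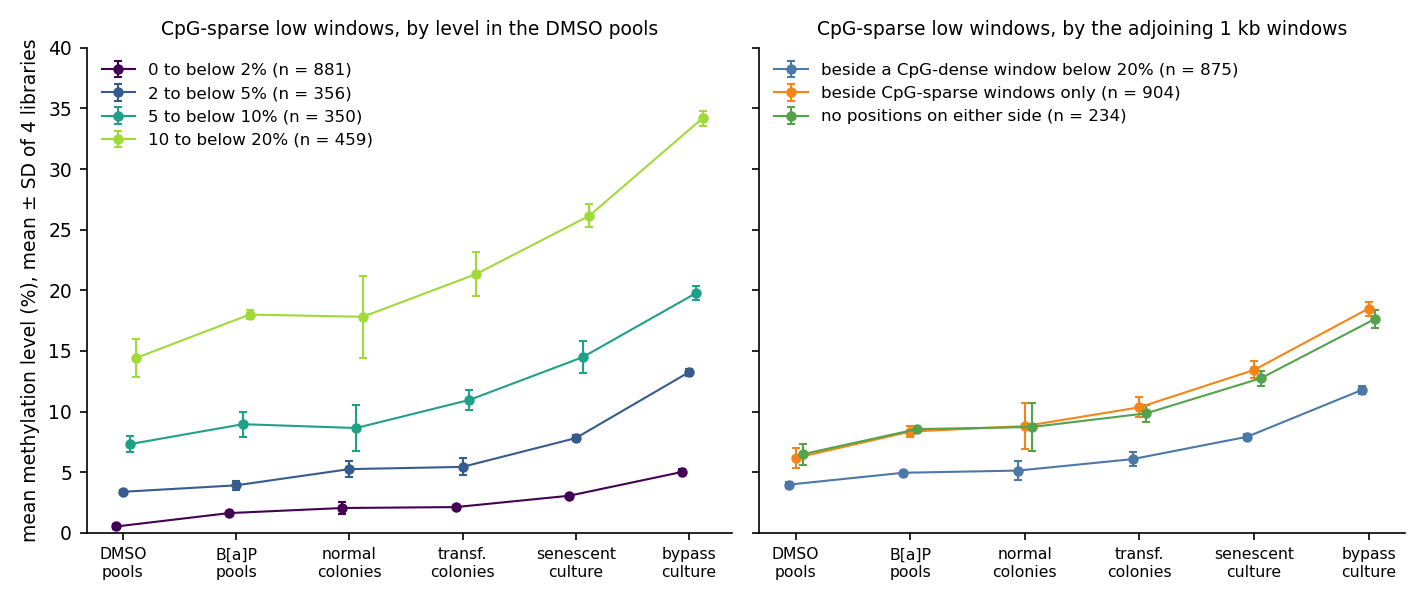
Mean methylation level (%) of the CpG-sparse low windows in each group (mean and SD of 4 libraries), split by level in the DMSO pools (left) and by what adjoins the window (right). In both panels each class is highest in bypass, and the windows beside a CpG-dense low window stay below the others, at 3.97% in the DMSO pools and 11.8% in bypass.

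Reads from the 2 strands of a window gave a partly separate measurement, since the strands are converted and read apart. They mostly covered different CpG sites, as a median of 5 of 15 sites were read on both strands. The gap between strands thus also holds differences between sites. In the 1981 windows with both strands read, the strands' levels lay within 10 points of each other in 1619 (81.7%) in the DMSO pools, with a median gap of 2.79 points. In bypass they did so in 1368 (69.1%), with a median gap of 4.94 points. The small gap in the DMSO pools follows in part from the definition, since low levels leave little room for one. The wider gap in bypass went with the higher level there.

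In bypass 10 scaffolds had a lower share of reads than in senescence (log2 ratio below -0.5). They held 46 of the 2046 windows and 1 of the 58 called ones, so called windows lay on them about as often as the whole set.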

How the data were processed

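Per the file headers, the deposited tables list CpG positions by strand with an unnormalised count of reads (coverage) and the percent of them reading C, the methylated state, or T. No position below 10 reads was listed. The submitters' processing notes name methylKit 1.10.0, R 3.6.1, Bismark 0.22.1, Trim Galore 0.5.0, bcl2fastq 2.20.0.42 and Bowtie2 with no role. Aligner settings, the removal of PCR copies and the genome build are not given in the sources used here, so coordinates are those of the deposited files and no gene or sequence was assigned.

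The number of methylated reads was taken as the product of coverage and percent, which lay within 0.06 reads of a whole number at every position of up to 1000 reads. They were summed over 1 kb windows, with windows needing at least 3 positions per library, from 382924 windows with any position. Each window was tested with a quasi-binomial logistic model of group. Dispersions were squeezed with limma 3.58.1 (R 4.3.3) within 10 classes of the pooled level and kept at 1 or more, and p-values from the F test were adjusted by Benjamini-Hochberg over all 22842 windows. A window without variation had a p of 1. edgeR 4.0.16 was the alternative test. Tested on simulated data, the main test gave somewhat more small p-values than nominal among unchanged windows.

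The windows, their definition, the classes and the tests were chosen with earlier results of these data known. Among called windows without overlap, the 6 that rose most and the 4 that fell most were named, and in a comparison with no call, the 3 of smallest p. To these were added the 3 with the lowest maximum level, the 5 with the largest SD over colonies and the 3 on each side of the 20% limit. Groups and replicate numbers came from the sample labels. Alternatives covered read and position minimums, shared positions, squeezing, the test, a replicate block and each library left out. No 2 libraries of a group agreed within sampling noise. Depth and the set of positions varied from library to library, and a level of 0 or 100% from few reads is imprecise.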

Additional observations from a re-analysis of the deposited data

Results flagged for a closer look

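In groups of 4 libraries, the highest or lowest value was compared with its gap to the nearest other. Of 59 such groups 8 stood out. Chance flags about 1 in 20 groups, or 2.95, but this rate does not hold where the other values are tied at 0, as in the DMSO medians and at KB708134.1:10699001-10700000, or in windows named for low B[a]P levels.

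The median level of the CpG-sparse low windows was 1.64% in DMSO replicate 4 and 0 in the other DMSO pools. In normal replicate 4, 33.9% of the windows were at 0, fewer than in the other normal colonies. In senescent replicate 2, 5.72% were at 50% or more, above the other senescent libraries. In bypass replicate 4 the median level was 4.74%, below the other bypass libraries, while 9.87% of its windows were at 50% or more, above them. Senescent replicate 2 and bypass replicate 4 had a median of 8 positions per window, fewer than the other libraries of their groups, and the part of this was not tested.

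In 3 named windows a single B[a]P pool stood above the other pools at a low level. These were replicate 1 at KB708134.1:10699001-10700000 (0.0928%), replicate 4 at KB708147.1:11205001-11206000 (4.35%) and replicate 1 at KB708159.1:4063001-4064000 (0.802%).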

How the results depend on the processing

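No count and no named window changed direction. The 58 windows called higher in bypass than in senescence became 21 over positions of at least 20 reads, 28 in windows of at least 5 positions per library, 35 over positions shared by the 8 libraries, 94 among windows with pooled methylation of 5 to 95%, 18 with no squeezing and 1 with edgeR. Over all windows the 521 called higher became 213, 389, 147, 767, 97 and 1 in the same order. The runs over fewer positions or windows measured 725, 751, 725 and 1150 windows of the set and 9722, 13840, 6996 and 11965 in all. Leaving out 1 library gave 24 to 42, against 240 to 411 over all windows. Of the 35 windows called over shared positions, 20 were among the 58, and of the 58 windows 32 could be measured there, 30 of them higher in bypass and the lowest at a difference of -0.0598 points. Only 28 of the 58 could be measured over positions of at least 20 reads and 26 with at least 5 positions per library, and all of these were higher in bypass. These runs and that over shared positions use reads that the call itself used, so the direction was largely set by the call. With the set limited to fewer than 20 positions 29 of 899 were called, and limited to below 10% in the DMSO pools 33 of 1587. The count of windows called lower was 0 in every alternative run.

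With the replicate number as a block, 40 windows were called higher in bypass, 34 of them among the 58, and 388 were over all windows. Between transformed and normal colonies the block gave 1 call, KB708425.1:362001-363000, against 0 without it. Over all windows the block gave 5 calls higher and 1 lower in that comparison. Correlations of deviations between same-numbered samples were small (highest 0.0302). Between normal colonies and B[a]P pools they reached 0.0260, against at most 0.0125 for different numbers. In the other comparisons the highest correlation was between different numbers. Such values cannot tell whether samples of the same number shared an assay. In the comparison of bypass and senescence 0 of 8 samples correlated best with their own number, and 3, 4 and 6 of 8 did so for transformed against normal colonies and for transformed and normal colonies against B[a]P pools. With no squeezing, 1 window was called between normal colonies and B[a]P pools, KB708137.1:7104001-7105000.

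Positions of at least 20 reads left 723 windows in the set, with means of 10.1% in senescence and 14.5% in bypass. Windows of at least 5 positions numbered 751, with means of 4.52% in the DMSO pools, 5.46% in the B[a]P pools, 5.74% in the normal and 6.71% in the transformed colonies, 8.61% in senescence and 12.9% in bypass. Over positions listed in all 24 libraries, an alternative chosen after seeing the data, the means were 5.90, 6.64, 7.51, 9.85 and 14.4% in the DMSO pools, B[a]P pools, transformed colonies, senescence and bypass. The cause of these shifts was not tested, beyond the smaller number of windows. Depth limits single windows most, since a window may rest on as few as 30 reads at 3 positions in a library.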
